A study of Mus musculus with 2 samples.

Results

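Displaced peaks are accessible sites that the lists of 2 genotypes place next to each other but not at the same position. They were chosen by position alone: an autosomal ATAC-seq peak of either list was a member if it overlapped no peak of the other list and the nearest such peak lay at an edge-to-edge gap of 0 to 500 bp. The rule found 11454 members among the 155660 peaks of the series, 5356 from the wild-type list and 6098 from the double-knockout list. Because position chose the members, their number and gaps are a description and not evidence of a change. The score of each peak and the class of its neighbour were not part of the rule.

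The cells were ETPs, the early progenitors that seed the T lineage in the thymus, taken from mouse fetal thymus of the C57BL/6 strain and sorted as CD4-CD8-Lin-CD44+CD25-ckit+. The genotype label of the wild-type library reads wild type and names no allele. The other library came from E2Afl/flHEBfl/flIL7RCre animals, in which floxed alleles of E2A and HEB are recombined where the IL7R-Cre driver is active, and its cells were also sorted for YFP. Nothing in the labels gives the age, sex or number of animals per library. Each genotype had 1 library, so no difference below has a replicate check and no test between genotypes was made. All intervals printed below are 95% Clopper-Pearson (exact) intervals. They cover only counting error over peaks, as if neighbouring peaks were independent.

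ATAC-seq uses a transposase that inserts adapters into DNA not wrapped around nucleosomes. An accessible stretch such as an enhancer or promoter can hold several places of high insertion, separated by nucleosomes or bound factors. E2A and HEB are E proteins, basic helix-loop-helix factors that bind E-box sequences and are known to be needed for T cell development in the thymus. Id proteins hold E proteins off DNA, and the balance between these families is known to bear on the choice between adaptive and innate lymphoid fates. The comparison of positions asks where, within an accessible stretch that both genotypes share, the peak of signal was listed.

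A peak marks 1 place of high signal and is nearly always 151 bp wide here, and within either list no 2 peaks start closer than 300 bp. The score is the authors' and has no stated unit. Ranks were taken within a list, and scores printed below are not comparable between the lists. A percentile below is the rank of a score within its own list, sex chromosomes included, with 100 the strongest. Genes near the peaks were not analysed here, because the coordinates are of build mm9 and the gene annotation used here is of GRCm38. For the same reason the sort was not checked against marker genes, loss of E2A and HEB was not checked, and no sequence is shown. The read depth of the libraries is unknown.

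Members made up 6.40% of the 83675 autosomal wild-type peaks and 8.94% of the 68206 autosomal double-knockout peaks. Peaks without an overlapping partner, called library-only here, were 39.1% of wild-type and 25.3% of double-knockout peaks. Of these, 16.4% were displaced in the wild type (16.0 to 16.8%) and 35.3% in the double knockout (34.6 to 36.1%). These 2 shares depend on how much each list holds beyond the other: with the wild-type list shortened by score to the length of the double-knockout list they were 21.5% and 26.1%. The double knockout thus held more displaced peaks than the wild type although its list was shorter, and at equal lengths the counts were 4620 for the wild type against 5584 for the double knockout.

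Distances between the lists fell into separate groups. Measured from centre to centre, the number of wild-type peaks per 10 bp fell from 25042 at 0 to 10 bp to a low of 107 at 150 to 160 bp. It then rose again to 349 at 220 to 230 bp. The low lies where overlap ends, at about the width of a peak. Displaced distances thus formed a group of their own and did not continue the fall seen among overlapping peaks. The double-knockout peaks had the same low of 107 and a high of 354 in the same bins, as most of these distances belong to pairs that count in both lists.

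The rise was present among strong and weak peaks. In the upper 50% of wild-type peaks by score the counts per 10 bp went from 55 at 150 to 160 bp to 209 at 230 to 240 bp. In the lower 50% they went from 52 to 147, with the high at 220 to 230 bp. In the double knockout the upper 50% went from 43 to 188 and the lower 50% from 64 to 190. The highest bin lay at 240 to 250 bp for the stronger double-knockout peaks, while for the weaker ones the bins from 210 to 230 bp held 190 each.

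A smaller rise followed at longer distances. It reached 86 wild-type peaks at 390 to 400 bp, from a low of 44 at 370 to 380 bp, and 127 double-knockout peaks at 390 to 400 bp, from a low of 78 at 350 to 360 bp. Neighbouring peaks within a single list were most often 410 to 420 bp apart, with 193 such pairs in that bin for the wild type against 288 for the double knockout. This is the most frequent spacing among neighbours up to 650 bp apart only, as most neighbouring peaks of a list lie farther apart. The longer displacements were close to that spacing, and much of this follows from construction. At 390 to 400 bp, the neighbour of 61 of the 86 wild-type peaks was overlapped by a further wild-type peak. In the double knockout the same held for 102 of the 127 peaks. The distance to such a neighbour stays near the spacing within the member's own list. The shorter displacements, most frequent at 220 to 230 bp, lie below the smallest spacing that either list holds.

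**Figure D1:**
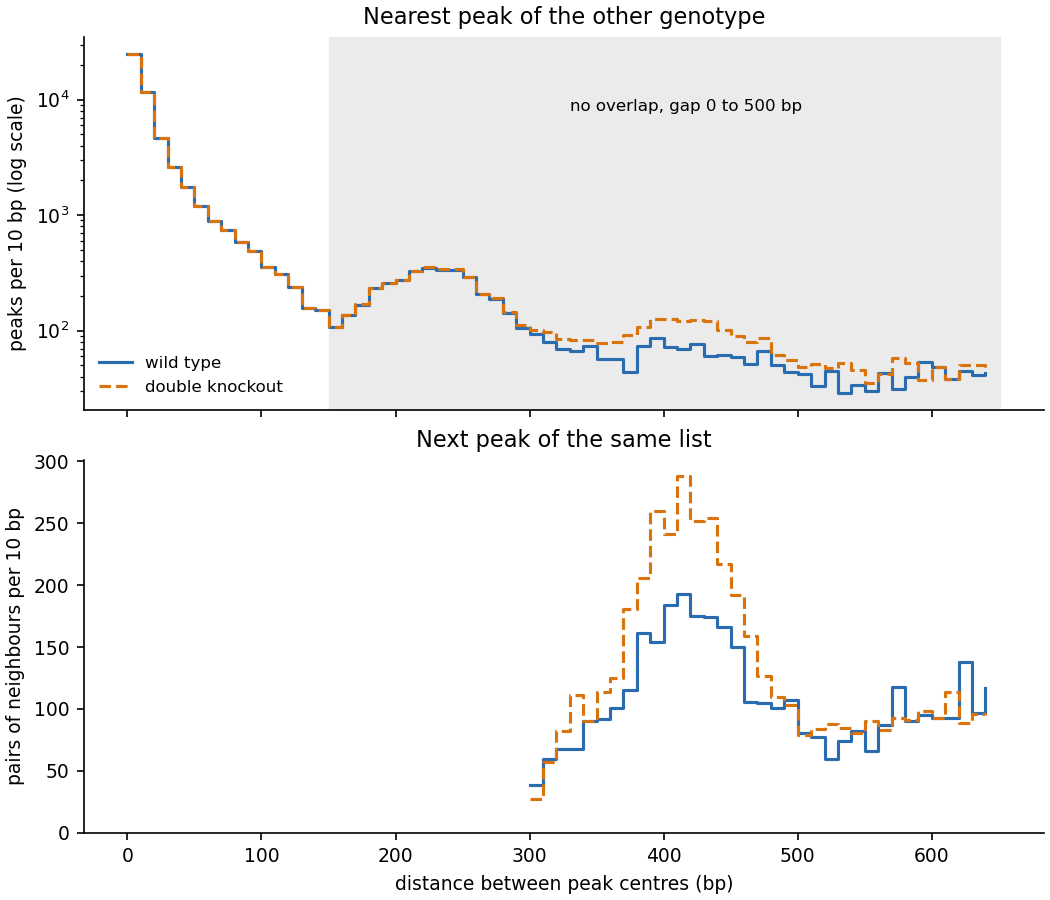
Distance between peak centres in bp, in bins of 10 bp, for autosomal peaks of the wild type (solid) and the double knockout (dashed); the upper panel counts peaks by the distance to the nearest peak of the other genotype on a log axis, with the displaced range shaded, and the lower panel counts neighbouring peaks of 1 list. The upper curves fall to 107 at 150 to 160 bp and rise again to 349 and 354 at 220 to 230 bp, and the lower curves start at 300 bp and are highest at 410 to 420 bp.

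The members fell into 2 main kinds. The first kind were reciprocal pairs, in which a wild-type and a double-knockout peak were both library-only and each was the nearest of the other list to its partner. There were 3971 such pairs, which took in 74.1% of wild-type and 65.1% of double-knockout members. The second kind lay beside a region that both lists had: 1242 wild-type members (23.2%) and 1944 double-knockout members (31.9%) had a shared peak as their nearest neighbour. The remaining 143 wild-type and 183 double-knockout members had a library-only neighbour that was itself nearer to another peak.

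The kinds differed in their gaps. Reciprocal pairs had a median gap of 83 bp (quartiles 52 and 119), with 84.6% of the pairs below 300 bp from centre to centre. Members beside a shared region had a median gap of 291 bp (234 and 388) for the wild type, 280 bp (234 and 355) for the double knockout, and 3.70% of them lay below 300 bp in each list. Part of this follows from construction: where the neighbour is shared, the member's own list already holds a peak there and must keep its spacing from it. Over all members the median gap was 104 bp for the wild type against 119 bp for the double knockout.

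Because a list never holds 2 peaks closer than 300 bp, 64.3% of wild-type and 57.2% of double-knockout members lay so near their neighbour that 1 list could not have held both positions. In these cases the lists differ in which position was listed, and the absence of the other position says nothing about the signal there. Up to a gap of 99 bp, 99.6% of wild-type and 98.95% of double-knockout members had a library-only neighbour. From 200 to 299 bp this held for 29.2% and 18.3%. Much of this contrast follows from construction. A shared neighbour is overlapped by a peak of the member's own list, which must start at least 300 bp from the member.

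The number of library-only peaks per 100 bp of gap fell with distance, steeply at first and slowly beyond the limit. In the wild type it was 2543 at 0 to 99 bp, 1298 at 100 to 199 bp, 647 at 200 to 299 bp, 451 at 300 to 399 bp, 412 at 400 to 499 bp and 356 at 500 to 599 bp. In the double knockout it was 2577, 1371, 1081, 611, 454 and 280 over the same classes. By 900 to 999 bp it was 253 and 196. In both lists the largest drop was from the first to the second class. At the limit itself the counts fell further, from 412 to 356 for the wild type and from 454 to 280 for the double knockout.

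Scores just inside and just outside the rule were of the same order. The 40 wild-type members with gaps of 491 to 500 bp had a median score of 8.21, and the 50 wild-type library-only peaks at 501 to 510 bp had 7.12. The 39 such double-knockout members had a median score of 5.63, against 6.16 for the 34 peaks just beyond. At the inner edge, the 105 wild-type members with gaps of 0 to 9 bp had a median score of 7.99, against 8.65 for the 145 shared peaks that overlapped by 1 to 10 bp. The corresponding double-knockout medians were 5.84 and 6.58.

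Displaced peaks as a whole ranked above other library-only peaks. Their median score was 8.87 (quartiles 5.48 and 15.1) in the wild type, at percentile 55.2, and 7.64 (4.67 and 14.5) in the double knockout, at percentile 48.0. Library-only peaks with no neighbour within 500 bp had medians of 4.93 (percentile 25.2) for the wild type and 4.67 (24.0) for the double knockout. Shared autosomal peaks had medians of 10.7 (63.7) and 9.45 (57.2). The contrast was not seen between classes on either side of the limit. Wild-type members at gaps of 400 to 499 bp had a median percentile of 39.5, against 40.4 for library-only peaks at 500 to 599 bp and 21.5 for the 18743 farther than 5000 bp. Double-knockout members at 400 to 499 bp had 40.2, against 41.0 at 500 to 599 bp and 17.5 for the 5772 farther than 5000 bp.

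The share of peaks that were displaced changed far less with score than the share without any neighbour. In the wild type 4.29% of the weakest 10% of peaks were displaced (3.85 to 4.76%), at most 7.68% in the seventh decile (7.12 to 8.26%), and 5.80% in the strongest 10%. In the double knockout the share lay between 8.75% and 10.03% in deciles 1 to 9 and was 5.99% in the strongest 10%. Peaks with no neighbour within 500 bp fell from 72.8% to 0.853% of a decile in the wild type and from 40.6% to 0.247% in the double knockout. As a result, displacement made up a growing part of the library-only peaks, from 5.56% in the weakest to 87.2% in the strongest wild-type decile and from 18.8% to 96.0% in the double knockout.

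**Figure D2:**
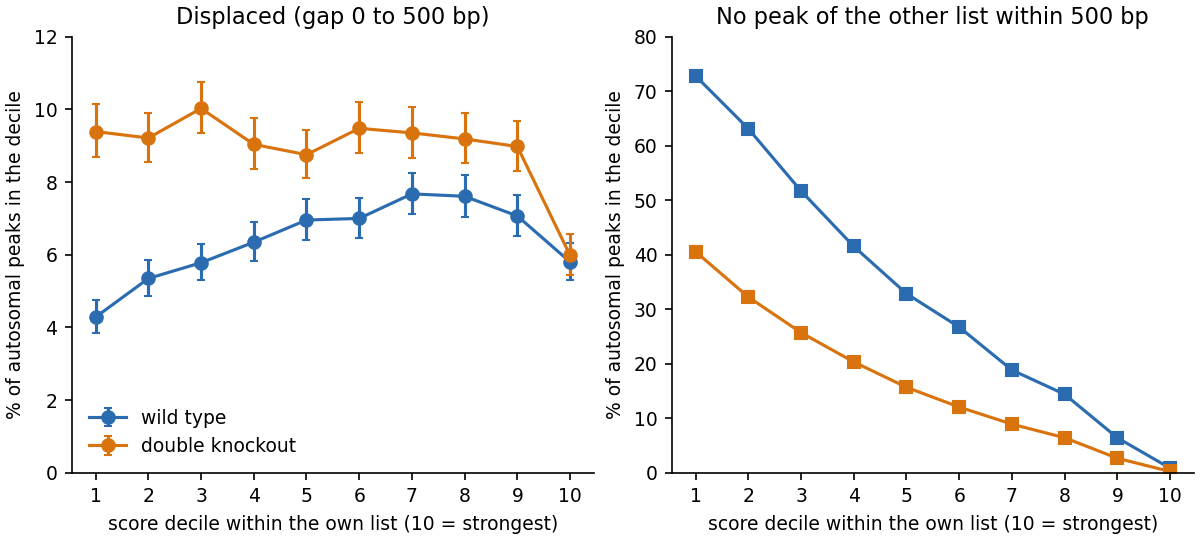
Share of autosomal peaks in each score decile of their own list (10 is the strongest) that were displaced (left, with exact 95% intervals for counting error) or lay over 500 bp from every peak of the other genotype (right), for the wild type in blue and the double knockout in orange. The displaced share stays between 4.29 and 10.03% in every decile, whereas the share without a neighbour falls to 0.853% and 0.247% in the strongest decile.

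Among the strongest 10% of each list, 490 of the 562 library-only wild-type peaks were displaced (87.2%, 84.1 to 89.8%) and 412 of the 429 library-only double-knockout peaks (96.0%, 93.7 to 97.7%). The other 72 and 17 lay over 500 bp from any peak of the other genotype. The neighbour of a strong member was mostly strong as well. It belonged to the strongest 10% of its own list for 353 of the 490 wild-type members (72.0%) and for 370 of the 412 double-knockout members (89.8%). All 412 strong double-knockout members and 481 of the 490 strong wild-type members had a neighbour in the upper 50% of its list. Strong positions listed in 1 genotype alone thus mostly lay beside a strong position of the other.

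Within reciprocal pairs the ranks of the peaks went together. The wild-type peaks of the 3971 pairs had a median percentile of 57.5 (quartiles 33.9 and 77.9) and the double-knockout peaks 46.8 (22.7 and 72.1). Spearman's rho between the percentiles was 0.706 over the 3971 pairs, and the median absolute difference was 11.9 percentile points. Overlapping pairs gave 0.766 over 50953 pairs and 8.73 points. The peaks of a pair lie close together on 1 chromosome, and pairs of neighbouring regions are not independent. These coefficients are therefore descriptions and carry no p-value. Local base composition was not measured. The wild-type peak had the higher percentile in 65.1% of the reciprocal pairs and in 64.4% of the overlapping pairs, so displaced and overlapping pairs leaned the same way to the same extent. A percentile depends on how many weak peaks a list holds, and the wild-type list is the longer one.

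Agreement in rank, measured by rho, depended on distance in steps. For overlapping pairs rho was 0.777 with centres 0 to 49 bp apart (45812 pairs), 0.679 at 50 to 99 bp (3922) and 0.717 at 100 to 150 bp (1219). For reciprocal displaced pairs it was 0.655 at 151 to 199 bp (891), 0.735 at 200 to 249 bp (1586) and 0.752 at 250 to 299 bp (883). It then fell to 0.637 at 300 to 399 bp (327) and 0.555 at 400 to 651 bp (284). Nearest pairs of library-only peaks beyond the limit gave 0.444 at 652 to 1151 bp (286) and 0.314 at 1152 to 1999 bp (414). The median absolute difference did not follow rho throughout. For overlapping pairs it was 13.1 points at 50 to 99 bp and 11.2 at 100 to 150 bp. For reciprocal displaced pairs it was 14.4 at 151 to 199 bp, 10.7 at 200 to 249 bp and 11.3 at 250 to 299 bp. It was 13.2 at 300 to 399 bp and 14.8 at 400 to 651 bp, and beyond the limit 14.4 and then 18.1. Pairs at 200 to 299 bp, where displacements were most frequent, thus ranked about as alike as overlapping pairs whose centres were 50 to 150 bp apart.

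**Figure D3:**
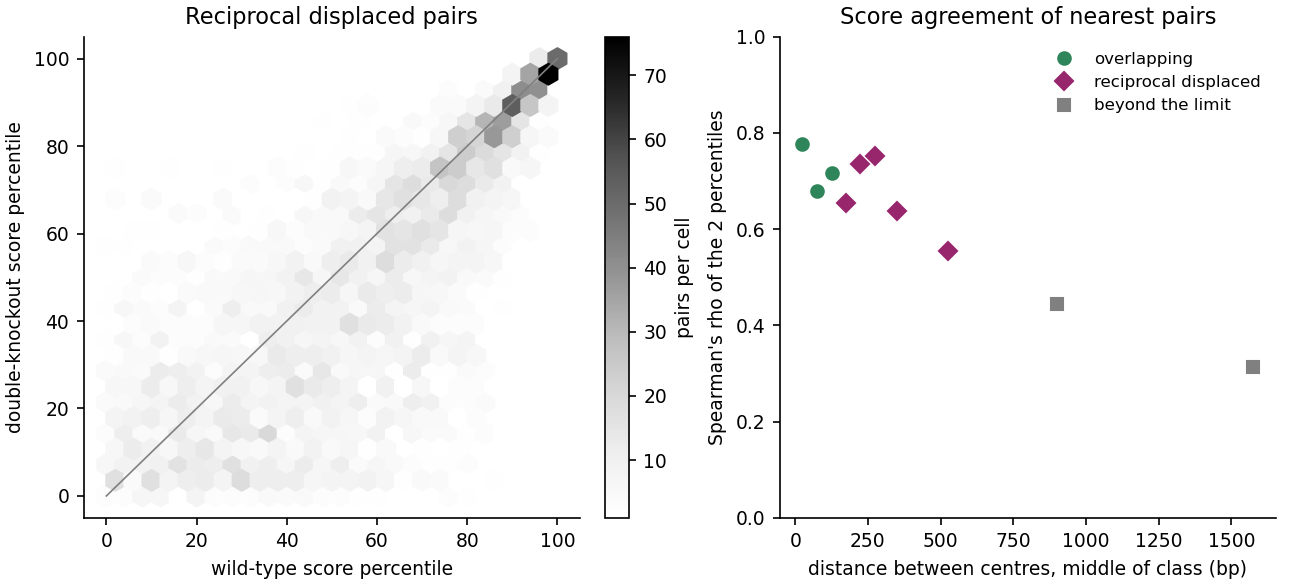
Left, the score percentile of the wild-type peak (x) against that of the double-knockout peak (y) of the 3971 reciprocal displaced pairs, with darker cells for more pairs and the line of equal percentiles; right, Spearman's rho of these percentiles against the distance between centres in bp, for overlapping pairs, reciprocal displaced pairs and pairs beyond the limit. Pairs of strong peaks lie close to the line, and rho is 0.735 and 0.752 at 200 to 249 and 250 to 299 bp but 0.314 at the largest distance.

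Displacements showed little preference for a side on the chromosome. The neighbour lay at the lower coordinate for 50.6% of wild-type and 48.9% of double-knockout members. The strength of the peaks in reciprocal pairs did not follow the distance in 1 direction. The median wild-type percentile was 56.4 at 151 to 199 bp between centres, 57.2 at 200 to 249 bp, 64.1 at 250 to 299 bp, 57.5 at 300 to 399 bp and 41.7 at 400 to 651 bp. The double-knockout medians over the same classes were 44.1, 48.0, 54.2, 45.5 and 31.5. In both genotypes the pairs at 250 to 299 bp were the strongest and the widest pairs the weakest. Over all members, rho between gap and percentile was -0.10 for wild-type and -0.0023 for double-knockout peaks.

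Positions beside a shared region were more frequent in the double knockout. They made up 2.85% of its autosomal peaks (2.73 to 2.98%) against 1.48% in the wild type (1.40 to 1.57%). At equal list lengths the shares were 2.80% and 1.48%, and in the upper 50% of each list 2.93% and 1.35%. These comparisons were added after the data were seen. By the definition of a shared neighbour, the member's own list always holds a companion peak that overlaps this neighbour. The companion therefore mostly lay within the gap limit as well, for 1921 of 1944 double-knockout and 1219 of 1242 wild-type members. The median distance to it was 428 and 443 bp. The member was the weaker of the 2 positions in most cases: it outranked that companion in 16.7% of the double-knockout and 20.9% of the wild-type cases. The median percentile was 50.9 for the double-knockout members and 65.5 for their companions, and 47.4 and 60.5 in the wild type. Companions are shared peaks, which ranked above displaced peaks in general. All shared autosomal peaks had median percentiles of 57.2 in the double knockout and 63.7 in the wild type.

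Closely spaced peaks were more frequent in the double-knockout list in general. Of its neighbouring autosomal peaks, 6.69% had a gap of at most 500 bp (4561 of 68187, 6.503 to 6.88%), against 4.53% in the wild type (3786 of 83656, 4.39 to 4.67%). The difference was similar at equal list lengths (6.69% and 4.57%) and in the upper 50% of each list (7.50% and 4.76%). With 1 library each, a property of the library and the genotype cannot be told apart here.

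Joining all autosomal peaks of both lists across gaps of up to 500 bp gave 90194 regions, of which 52701 held peaks of both genotypes. A displaced peak was present in 7068 of these, or 13.4%, with a median span of 537 bp. No peak of the region was shared in 3643 of them (51.5%), and the other 3425 also held a shared peak. The most frequent make-up was 1 peak of each list, in 3270 regions, which is 6.92% of the 47238 regions with 1 peak of each. A further 701 reciprocal pairs lay in regions with more peaks.

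Among regions with unequal numbers, those with more double-knockout peaks were the more frequent. There were 1877 displaced regions with 1 wild-type and 2 double-knockout peaks and 1231 with the reverse. These were 98.4% of all 1908 regions of the first make-up and 97.7% of all 1260 of the second, so nearly every such region holds a displaced peak and the lean is that of all regions. Over all make-ups, 2101 displaced regions (29.7%) held more double-knockout and 1356 (19.2%) more wild-type peaks. In 1686 of the 1877 regions the single wild-type peak overlapped 1 of the double-knockout peaks, so that the other was an added position. The same held in 1081 of the 1231 reverse regions (89.8% against 87.8%). In 191 of the 1877 it overlapped neither, and in 104 of these it stood between them. In the reverse make-up a double-knockout peak stood between 2 wild-type peaks, overlapping neither, in 89 of 1231 regions.

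**Figure D4:**
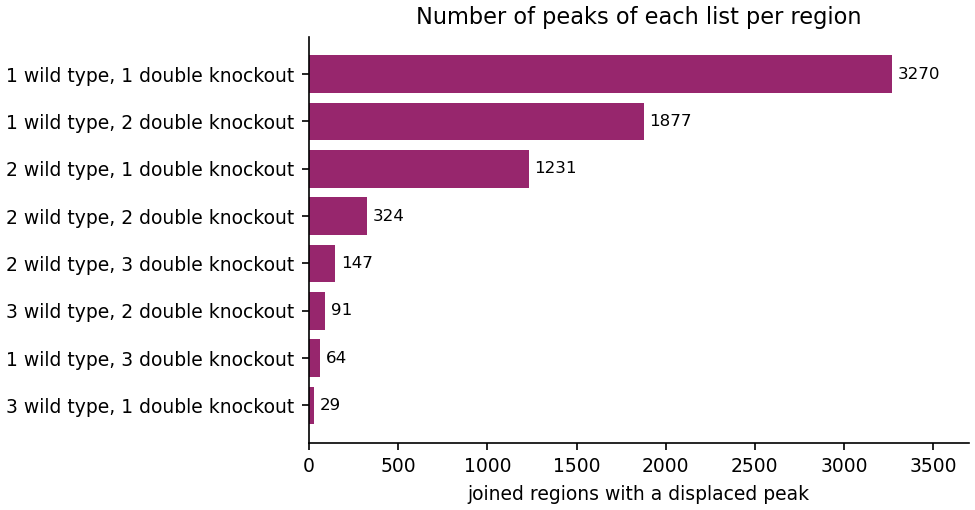
Number of joined regions with a displaced peak (x) by how many peaks of each list they hold, for the 8 most frequent make-ups. Regions with 1 wild-type and 2 double-knockout peaks (1877) outnumber those with 2 and 1 (1231), and 3270 regions have 1 of each.

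The displaced share was even across the autosomes. It ranged from 5.65 to 7.19% of the peaks of a chromosome in the wild type and from 8.37 to 10.04% in the double knockout. On none of the 19 autosomes did the interval exclude the share over all autosomes in either list. In their surroundings, displaced wild-type peaks had a mean of 1.07 further peaks of their list between 1 and 10 kb away, against 1.10 for shared and 1.04 for other library-only peaks. In the double knockout these means were 0.926, 0.9501 and 1.11. In the wild type the displaced mean thus lay between those of shared and other library-only peaks. In the double knockout it was close to that of shared peaks and below that of other library-only peaks. There, 42.5% of the displaced and 35.2% of the other library-only peaks had no such further peak. The median was 1.0 in every class of both lists.

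Reciprocal pairs also occurred near the top of both lists. In 288 reciprocal pairs (7.25%) both peaks belonged to the strongest 10% of their list, in 144 to the strongest 5% and in 35 to the strongest 1%. The 6 pairs with the highest lower percentile follow, with mm9 coordinates counted from 1. They were picked for high ranks in both lists, so these ranks are not a result. On chromosome 1 the wild-type peak lay at 169323899 to 169324049 with a score of 87.1, and the double-knockout peak at 169324181 to 169324331 with a score of 109.8, a gap of 131 bp. On chromosome 8 the wild-type peak at 119502517 to 119502667 scored 86.6 and the double-knockout peak at 119502781 to 119502931 scored 111.6, 113 bp away. Both peaks of each of these pairs stood at percentile 99.9 of their list.

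Chromosome 16 held 3 of the 6 pairs. The wild-type peak at 55934867 to 55935017 scored 88.8 (percentile 99.90). Its double-knockout neighbour lay across a gap of 117 bp at 55934599 to 55934749 and scored 101.8 (99.86). The wild-type peak at 90144138 to 90144288 (90.1, percentile 99.92) had its neighbour at 90144412 to 90144562 (95.9, 99.76), 123 bp away. The wild-type peak at 38089260 to 38089410 (79.7, percentile 99.74) had its neighbour at 38088955 to 38089105 (100.8, 99.84), 154 bp away. With a distance of 305 bp from centre to centre this was the only 1 of the 6 pairs wide enough for a single list to hold both positions. The sixth pair lay on chromosome 2, with a gap of 110 bp. Its wild-type peak was at 3250200 to 3250350 (79.7, percentile 99.74) and its double-knockout peak at 3249939 to 3250089 (99.1, 99.82). The double-knockout position was at the higher coordinate in 3 of the 6 pairs. All 6 had centre distances of 261 to 305 bp, longer than the median of 234 bp over all reciprocal pairs.

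The strongest members beside a shared region showed a second strong position that 1 genotype alone listed. In the wild type the leading peak lay on chromosome 9 at 4309767 to 4309917 with a score of 80.1. The region beside it was listed in both genotypes, at 4309444 to 4309594 in the wild type (90.2) and at 4309447 to 4309597 in the double knockout (109.8). The next was on chromosome 13 at 81849946 to 81850096 (74.0), where the wild type's own companion at 81850288 to 81850438 scored slightly lower, 72.1. The third was on chromosome 7 at 19813348 to 19813498 (62.2), 463 bp from the double-knockout peak at 19813962 to 19814112 (85.9).

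In the double knockout the leading such peak was on chromosome 17 at 85356520 to 85356670, with a score of 104.4 at percentile 99.9. Its own companion at 85356853 to 85357003 scored 120.4 and overlapped the wild-type peak at 85356950 to 85357100 (90.1). On chromosome 9 the double-knockout peak at 13631516 to 13631666 (99.3) stood 328 bp from its companion at 13631844 to 13631994 (115.0), which overlapped the wild-type peak at 13631822 to 13631972 (101.7). On chromosome 3 the double-knockout peak at 130412260 to 130412410 scored 86.4, above its companion at 130412564 to 130412714 (79.5), and the wild-type peak at 130412563 to 130412713 scored 64.5. In these 3 regions both genotypes listed 1 strong position at nearly or partly the same place, and the double knockout listed a further one.

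Some reciprocal pairs differed widely in rank. Among pairs with a member in the strongest 10%, the one with the largest difference towards the wild type lay on chromosome 3, where the wild-type peak at 153229234 to 153229384 stood at percentile 90.9 (score 29.0) and the double-knockout peak at 153228749 to 153228899 at 1.69 (score 3.08). It was followed by pairs on chromosome 7 (50810124 to 50810274, percentile 92.1, against 50810286 to 50810436, 11.6) and on chromosome 14 (71180962 to 71181112, 92.8, against 71180649 to 71180799, 13.2). The largest difference towards the double knockout in this group was on chromosome 7, with percentile 90.01 at 97504025 to 97504175 against 57.5 for the wild-type peak at 97504216 to 97504366. The next were on chromosome 6 (120866802 to 120866952, 93.0, against 120867044 to 120867194, 68.3) and chromosome 12 (55797724 to 55797874, 90.9, against 55798048 to 55798198, 71.8). In this group the largest difference was 89.2 percentile points towards the wild type and 32.6 towards the double knockout, or 78.6 and 42.2 at equal list lengths. Over all reciprocal pairs, added after the data were seen like the values at equal lengths, the largest differences were 89.2 and 73.9 points, or 87.1 and 82.9 at equal lengths. Differences of over 50 points were towards the wild type in 157 and towards the double knockout in 34 of the 3971 pairs, and in 86 and 48 of 3498 at equal lengths. The lean towards the wild type thus shrank with the longer list shortened.

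**Figure D5:**
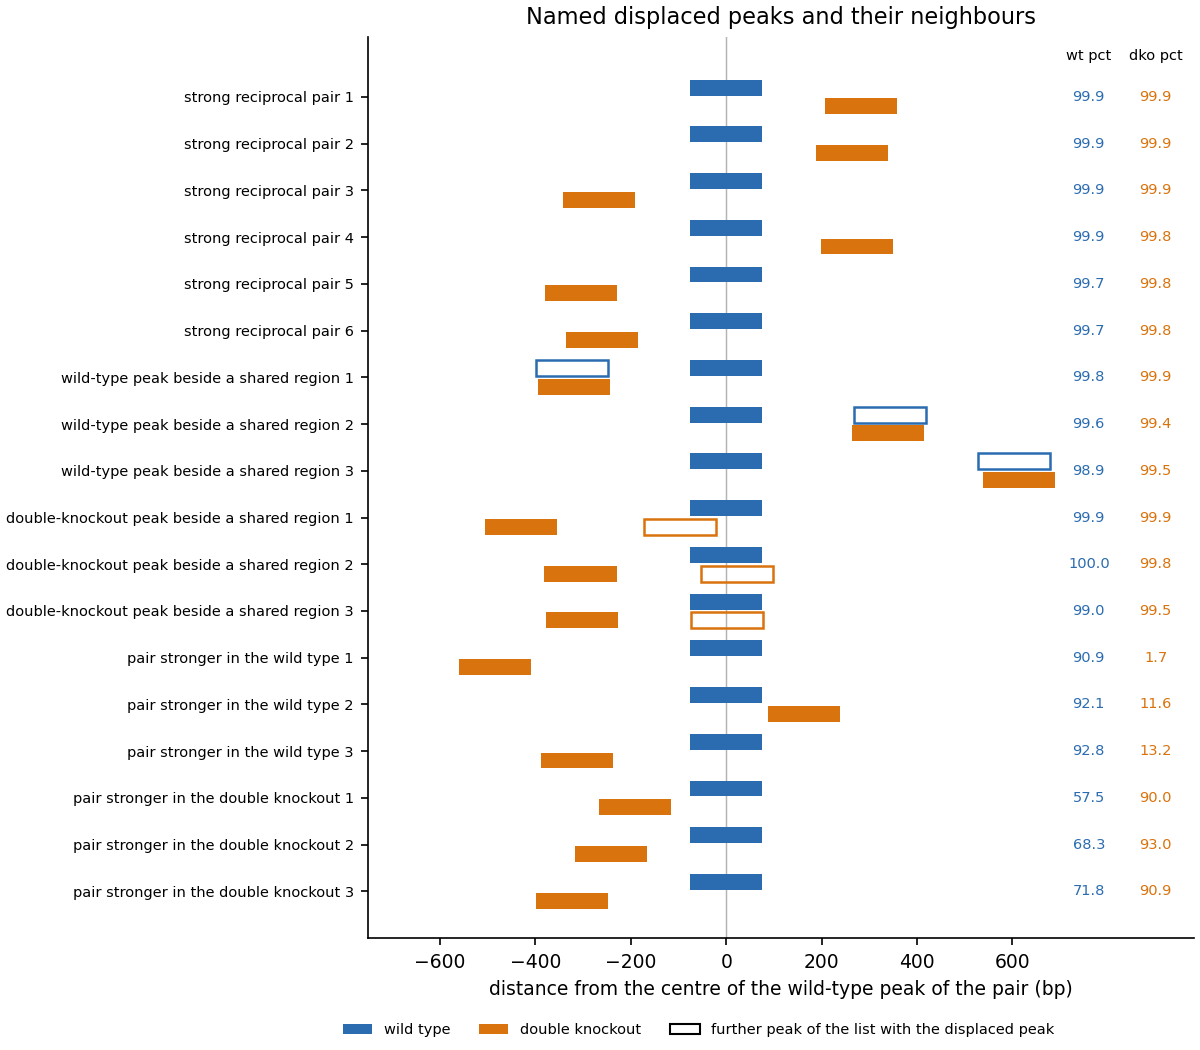
Positions of the named peaks in bp from the centre of the wild-type peak of each pair, with wild-type peaks in blue, double-knockout peaks in orange and, as open boxes, the further peak of the list that holds the displaced one; the numbers at the right are score percentiles within each list. The strong pairs lie 261 to 305 bp apart at percentiles of 99.7 or more, and the 3 pairs stronger in the wild type have double-knockout percentiles of 1.69 to 13.2.

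At most 4 displaced peaks lay in 1 joined region, which 27 regions reached, 4 of them with 6 or more peaks. Of these, a region of 1889 bp on chromosome 5 (77694362 to 77696250) began with a shared site. That site scored 24.4 in the wild type (percentile 87.9) and 24.1 in the double knockout (84.0). The region went on with double-knockout peaks at offsets of 494 and 1463 bp from its start (19.1 and 18.0). Its displaced wild-type peaks lay at 911 and 1738 bp (17.5 and 23.8). A region of 1933 bp on chromosome 8 (23969259 to 23971191) had its shared site in the middle, with wild-type and double-knockout peaks displaced from each other by a gap of 125 bp before it and 109 bp behind it. In both regions the displaced positions of the 2 genotypes alternated along the chromosome.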

How the data were processed

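The authors deposited 1 peak list per library without a header, with chromosome, start, end, name, score and strand. The deposited score has no stated unit and was used for ranks within a list. The notes of the submitters name bcl2fastq 1.8.4, Bowtie, HOMER and build mm9 without roles or settings. How reads were shifted, duplicates treated and peaks thresholded is not stated there, and each could change which position of a broad region is listed. Starts were read as BED and are printed counted from 1.

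Sharing required an overlap of 1 bp or more between the lists. The gap ran between facing edges, with 0 for adjoining peaks, and 1 member had neighbours at equal gaps on both sides, of which the lower coordinate was used. The named regions were the 6 reciprocal pairs with the highest value of the lower percentile, the 3 strongest members per list beside a shared region, the 3 pairs per direction with the largest difference and a member in the strongest 10%, and the 2 joined regions with the most members. Ties among the last were broken after the data were seen, by number of peaks and then by highest percentile. Members, rules and classes were chosen with earlier results of these data known. The neighbour step was checked on simulated data. Alternatives covered the gap limit, overlap rule, score, list length and peak width. Planned motif and gene counts were not run, because no sequence or annotation of mm9 was used here. Software was pandas 2.3.3, SciPy 1.17.1 and NumPy 2.4.6 under Python 3.11.15, with figures from matplotlib 3.10.9.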

Additional observations from a re-analysis of the deposited data

Results flagged for a closer look

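The X chromosome was outside the rule, and by the same positions it held 142 displaced wild-type peaks (6.83% of its 2079 peaks, 5.78 to 8.001%) and 127 displaced double-knockout peaks (7.51% of 1690, 6.30 to 8.88%). These values are given because they lie in data the comparisons above did not use. The wild-type interval held the autosomal share of 6.40%, while the double-knockout interval lay just below the autosomal 8.94%. In number, the wild type held more displaced peaks than the double knockout on the X chromosome, the reverse of the autosomes. The intervals cover counting error only, and the sex of the animals is unknown.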

How the results depend on the processing

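No paired analysis was possible because each genotype had a single library, which also left no replicate to omit. Values are given for the wild type and then the double knockout, and of the 100 values recomputed under 6 alternatives 57 moved beyond their counting interval or by over 1.5 times. For median gaps that interval came from order statistics, and for rho from Fisher's z transformation. The alternatives redefine the members, so that some movement follows from construction. With a gap limit of 250 bp, 12.7% and 25.8% of library-only peaks were displaced, 90.3% and 85.0% of the members had a library-only neighbour, the median gap was 85 and 89 bp, and 82.9% and 78.4% lay below 300 bp between centres. With 1000 bp these were 20.9% and 42.5%, 66.2% and 62.4%, 147 and 166 bp, and 50.3% and 47.6%. With 50% overlap required for sharing they were 22.5% and 43.7%, 85.5% and 79.2%, 65 and 76 bp, and 75.9% and 69.9%, with 1002 and 800 members in the strongest 10% and 6545 reciprocal pairs. With peaks recentred to 200 bp they were 14.6% and 32.7%, 69.3% and 60.7%, 81 and 107.5 bp, and 54.8% and 48.5%. At equal list lengths the shares of library-only peaks were 21.5% and 26.1%, those with a library-only neighbour 78.2% and 65.8%, those below 300 bp 65.8% and 55.3%, and the double-knockout median gap was 124 bp. In the upper 50% of both lists there were 2263 and 2733 members (13.8% and 32.1% of library-only peaks), 233 and 210 of them in the strongest 10%, and 1649 reciprocal pairs with a rho of 0.745. There, 74.9% and 63.3% had a library-only neighbour, the double-knockout median gap was 129 bp with 54.0% below 300 bp, 1.35% of wild-type peaks lay beside a shared region, and 4.76% and 7.50% of neighbours within a list were close. On the autosomes, the double knockout held more displaced peaks than the wild type under all 6 alternatives. Depth limits are unknown, as the lists hold no read counts.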
